A study of Mus musculus with 12 samples.

Results

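The 34 genes described here are a list of megakaryocyte and platelet genes, out of 21853 genes in the deposited table. They were listed by name for their known place in these cells: 8 encode granule, secreted or granule-membrane proteins, 10 adhesion and activating receptors, 12 signalling receptors, eicosanoid enzymes and signalling proteins, 3 cytoskeletal or other proteins, and 1 a transcription factor. Directional mRNA libraries were made from whole bone marrow of B6 mice and expression was deposited as FPKM, fragment counts scaled by the length of the transcript and the size of the library. Each of 4 groups had 3 libraries, all taken 14 days after the irradiation date. Control mice were not irradiated, and no treatment is stated for them. TBI mice had total body irradiation with γ-rays at 5 Gy, given at 0.66 Gy/min, and then 100 µL of olive oil by mouth as vehicle. TBI+DEIX mice had the same irradiation and then DEIX, the carotenoid deinoxanthin, by mouth at 25 mg/kg once a day for 14 days. DEIX mice received DEIX without irradiation. Vehicle is stated for the TBI group alone, so irradiation and vehicle cannot be told apart in the comparison of TBI with control. Age, sex and the number of animals behind a library are not given in the sources used here, so the p-values measure the spread between these libraries, which may be technical.

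Megakaryocytes are large polyploid marrow cells that fill with granules and extend processes that shed platelets into the blood. Platelets carry adhesion receptors for von Willebrand factor, collagen and fibrinogen, receptors for ADP and thrombin, and alpha granules loaded with chemokines and adhesive proteins. Megakaryocytes are rare among marrow cells, so in whole marrow their transcripts are diluted by those of granulocytes, erythroblasts and lymphocytes, and a lower level cannot be told apart from fewer cells or less RNA per cell. Several listed genes, among them Cd9, Plek, Rgs18, Fli1, Ptgs1, Itgb3 and Thbs1, are also known from leukocytes or stromal cells.

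Genes of this lineage are known for control by GATA factors (GATA1) together with ETS factors (FLI1), so the promoters of the members were read for both motifs. RefSeq promoter windows on GRCm38.p6, which has the coordinates of mm10, were found for 26 members, each 250 bases before and 50 after the annotated start. A GATA motif (AGATAA or TGATAA, either strand) was present in 9 of the 26, or 34.6%, against 15.8% of the 16515 genes of the table with a window. An ETS motif (AGGAAG, either strand) was present in 16, or 61.5%, against 34.1%. Both were present in 5, or 19.2%, against 5.59%. With GGAAGT as the ETS motif, 12 members (46.2%, against 25.5%) held a match, and 4 (15.4%, against 3.86%) held both motifs. A match describes the letters in these windows and does not locate a bound site. The 5 genes with both motifs are shown because they span the patterns below: Pf4, F2rl2 and Ctla2a fell in both irradiated groups against control, Gp1ba fell in TBI+DEIX, and Gp5 was not called. The lines hold the 250 bases before the RefSeq start, or for F2rl2 the 183 bases before the earlier start in GENCODE vM21, 5′ to 3′ on the gene's strand, with GATA and ETS matches on either strand in capitals.
Pf4: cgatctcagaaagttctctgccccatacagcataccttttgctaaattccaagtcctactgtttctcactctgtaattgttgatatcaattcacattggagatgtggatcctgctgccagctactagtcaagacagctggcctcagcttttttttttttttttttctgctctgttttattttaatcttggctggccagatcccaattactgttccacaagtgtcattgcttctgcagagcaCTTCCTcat
Gp1ba: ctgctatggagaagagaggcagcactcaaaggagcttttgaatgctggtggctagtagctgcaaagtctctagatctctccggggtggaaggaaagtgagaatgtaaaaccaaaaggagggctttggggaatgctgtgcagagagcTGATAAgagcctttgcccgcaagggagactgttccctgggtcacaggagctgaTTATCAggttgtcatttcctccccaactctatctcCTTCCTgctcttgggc
Gp5: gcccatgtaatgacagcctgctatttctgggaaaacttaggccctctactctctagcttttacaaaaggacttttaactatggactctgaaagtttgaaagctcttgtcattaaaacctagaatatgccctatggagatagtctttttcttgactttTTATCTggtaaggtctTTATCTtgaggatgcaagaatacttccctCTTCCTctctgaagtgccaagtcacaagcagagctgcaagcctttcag
F2rl2: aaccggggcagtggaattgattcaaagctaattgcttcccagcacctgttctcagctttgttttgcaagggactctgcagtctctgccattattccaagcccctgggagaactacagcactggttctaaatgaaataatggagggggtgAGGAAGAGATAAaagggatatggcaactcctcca
Ctla2a: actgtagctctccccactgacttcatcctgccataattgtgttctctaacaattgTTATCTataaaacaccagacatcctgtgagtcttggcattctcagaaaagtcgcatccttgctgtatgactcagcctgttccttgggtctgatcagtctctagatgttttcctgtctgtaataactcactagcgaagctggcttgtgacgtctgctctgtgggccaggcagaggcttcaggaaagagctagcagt
These lie at chr5:90772185-90772434 (plus strand) for Pf4, chr11:70638872-70639121 (plus) for Gp1ba, chr16:30310782-30311031 (minus) for Gp5, chr13:95696670-95696852 (plus) for F2rl2 and chr13:60936626-60936875 (minus) for Ctla2a. Positions are those of a match's first base counted from the RefSeq start. In Pf4 the ETS match begins 9 bases before the start, and its GATA match, AGATAA, begins at base 37 after the start and so is not in the line. Gp1ba has GATA matches 104 and 51 bases and an ETS match 16 bases before the start. Gp5 has GATA matches 93 and 77 bases and an ETS match 48 bases before it. In F2rl2 the ETS and GATA matches are adjacent, 101 and 95 bases before the RefSeq start. In Ctla2a the GATA match lies 195 bases before the start, and the ETS match begins at base 6 after it.

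The libraries were alike in how many genes they detected: 10359 to 10832 genes reached 1 FPKM. FPKM summed to between 493683 and 848843 per library. Read totals are not in the table, but the steps between low values gave the worth of 1 read relative to control replicate 1 as 0.880 to 1.90 in 11 libraries and left it unsettled in TBI+DEIX replicate 1. That library also stood apart on the first principal component of all tested genes (53.3, against -33.2 to 21.5 in the other 11), so members' values without it are given where leaving it out changes a call or moves a called value by more than 1.5 times, and for some others. All 34 members were above 0 in every library. A gene was tested if it reached 1 FPKM in at least 3 libraries, which 10994 genes and 32 members did. Gp6 and Trpc6 stayed under 1 FPKM in every library and were not tested. Differences below are between group means of log2(FPKM + 1), which understates the change of genes near or under 1 FPKM, and a gene was called at a limma adjusted p under 0.05 (Benjamini-Hochberg over the 10994 genes).

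In TBI marrow against control, 12 members fell and 1 rose out of 32 tested, where 3.1% of all tested genes were called lower and 0.891% higher. The members that fell were the chemokine genes Pf4 and Ppbp, the calmodulin-binding Nrgn, the integrin chain Itga2b, the platelet tubulin Tubb1, and Treml1, Ctla2a, Alox12, F2rl2, Cavin2, Gng11 and Mrvi1. The list did not move as a whole: of its 10 members with the highest control level (Cd9, Plek, Pf4, Rgs18, Ppbp, Fli1, Ptgs1, Thbs1, Itgb3 and Gp1bb), Pf4 and Ppbp alone fell. The median difference of the tested members was -0.633 on the log2 scale, beside 0.0451 over all tested genes. Among all 34 members, 23 had every TBI library below every control library and 1 had every TBI library above, where 16.3% and 22% of tested genes did so. Of the 32 tested members these were 21 and 1. The counts of calls and of libraries and the median describe the list and are no support for it. In every irradiated library 6 members were under 1 FPKM: Treml1, Gp1ba, Alox12, Mrvi1, Tubb1 and Cavin2. They passed the filter only through control and DEIX, and all but Gp1ba are among the 12 called lower. The differences and p-values given below for these 6 are a description too. The calls of Pf4, Ppbp, Nrgn, Tubb1, Treml1, Ctla2a, Alox12 and Gng11 held under every alternative run that tested them. For Tubb1, Treml1 and Alox12 the limit just given stands. A run with a minimum mean of 5 FPKM did not test Nrgn, Tubb1, Treml1, Alox12 and Gng11. Itga2b, F2rl2, Mrvi1 and Cavin2 lost the call without control replicate 1 and without TBI replicate 1, and all of these but F2rl2 also without control replicate 3. Mrvi1 lost it without TBI replicate 2, Mrvi1 and Cavin2 without TBI replicate 3, and Ptgs1 when any 1 of the 6 libraries compared was left out. Mrvi1 also lost it with quantile normalization, and Itga2b when scaled to equal FPKM sums without S100a8, S100a9 and Ngp.

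In TBI+DEIX marrow against the same controls, 20 members fell and 4 rose, where 13.1% of tested genes were called lower and 16.9% higher. The median of the members was -0.723, beside 0.0198 over all tested genes. Every TBI+DEIX library was below every control library for 22 of the 34 members and above for 5, against 21.1% and 23.9% of tested genes. The members that fell were the 12 named above and Vwf, Mmrn1, Gp1ba, Gp9, Clec1b, Cd226, Tbxas1 and Rab27b, and those that rose were Selp, P2ry12, Ptgs1 and Rgs18. This comparison and those of TBI and of DEIX with control use the same 3 control libraries. Of the 24 calls, 15 held under every alternative run that tested the gene. In 21 of the 34 members every TBI and every TBI+DEIX library lay below every control library, and of the 32 tested members this was 19, where 9.98% of tested genes did so. The 19, and the 20 called lower, each include the 6 that passed the filter only through control and DEIX. These counts and the median of the members are thus a description and no support. Over all 34 members, TBI stood at 15.3 to 144% of the control mean FPKM (median 47.5%), TBI+DEIX at 11.2 to 334% (41.5%) and DEIX at 34.7 to 245% (76%).

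**Figure D1:**
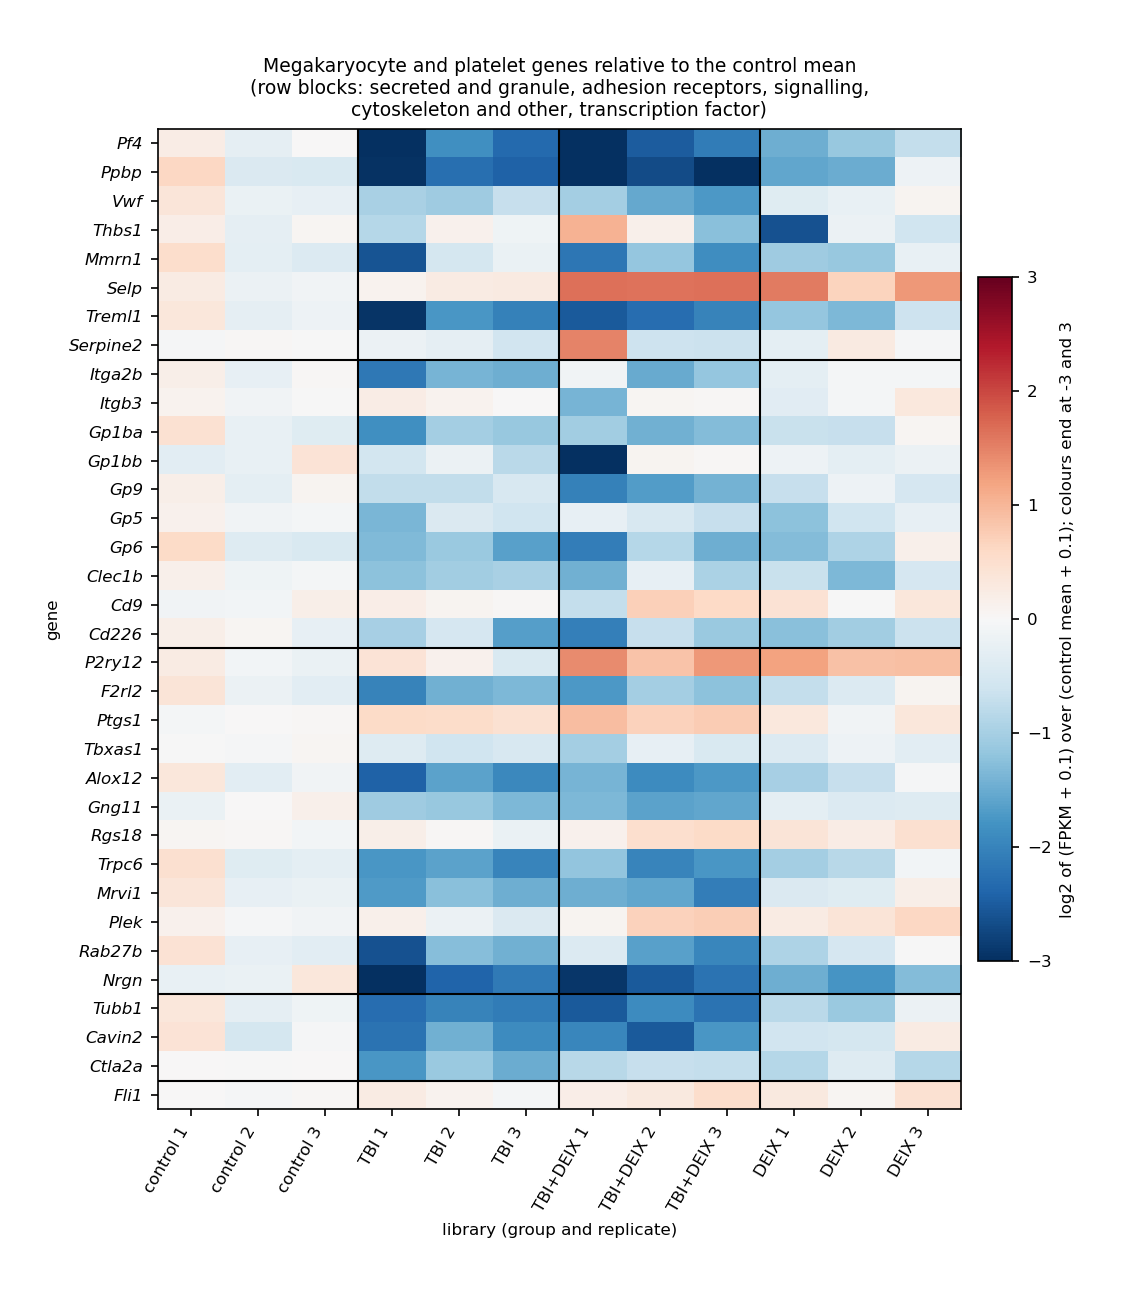
Level of each of the 34 members (rows, in blocks by role) in each of the 12 libraries (columns), as log2 of FPKM + 0.1 relative to the control mean + 0.1; blue is lower and red is higher than control. Pf4, Ppbp, Nrgn, Treml1 and Tubb1 are dark blue in all 6 irradiated libraries and paler in DEIX, whereas Selp and P2ry12 are red in TBI+DEIX and DEIX.

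Among the granule and secreted proteins, the chemokines stood highest in control. Of the members called lower, they had the largest differences of log2(FPKM + 1) in both irradiated groups. As a share of the control mean, Nrgn was lower in TBI, at 16.1%, beside 17.2% for Ppbp and 18.1% for Pf4. In TBI+DEIX these shares were 16.4% for Nrgn, 11.2% for Ppbp and 17.7% for Pf4. Pf4 (ENSMUSG00000029373.7, chr5:90772435-90773383, plus strand) encodes platelet factor 4, the alpha-granule chemokine most used to mark the lineage. Its neighbour Ppbp (ENSMUSG00000029372.7, chr5:90768518-90770063, plus strand), the precursor of platelet basic protein, ends 2371 bases before Pf4 begins. Pf4 measured 71.4, 50.6 and 61.9 FPKM in control, 22.1, 27.6 and 37.4 in DEIX, 4.02, 17.1 and 12.2 in TBI and 7.45, 10.9 and 14.2 in TBI+DEIX. Every irradiated library was below every DEIX library, and every DEIX library below every control library. Pf4 fell by 2.54 on the log2 scale in TBI (SE 0.40, limma adjusted p = 0.00559) and by 2.42 in TBI+DEIX (SE 0.40, adjusted p = 0.00158). Ppbp measured 61.3, 29.8 and 28.9 FPKM in control, 13.4, 14.1 and 35.9 in DEIX, 5.06, 8.28 and 7.33 in TBI and 2.63, 6.1 and 4.74 in TBI+DEIX. Control replicate 1 and DEIX replicate 3 were high within their groups, and DEIX overlapped control while both irradiated groups lay below all DEIX libraries. Ppbp fell by 2.31 in TBI (SE 0.40, adjusted p = 0.00921) and by 2.87 in TBI+DEIX (SE 0.40, adjusted p = 0.000637).

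Treml1, a receptor of the alpha-granule membrane that reaches the surface on activation, measured 3.4, 2.23 and 2.42 FPKM in control, 1.15, 0.998 and 1.71 in DEIX, 0.26, 0.733 and 0.581 in TBI and 0.382, 0.473 and 0.595 in TBI+DEIX. DEIX again lay between control and the irradiated groups without overlap. Treml1 passed the filter only through control and DEIX. Treml1 fell by 1.27 in TBI (SE 0.17, limma adjusted p = 0.00203) and by 1.30 in TBI+DEIX (SE 0.17, adjusted p = 0.000482). Vwf, the adhesive protein of alpha granules and of endothelium, measured 2.72, 1.8 and 1.75 FPKM in control, 1.6, 1.79 and 2.22 in DEIX, 1.01, 0.95 and 1.26 in TBI and 0.988, 0.651 and 0.566 in TBI+DEIX. The irradiated libraries were all below control, and the difference was -0.56 in TBI (adjusted p = 0.0676, not called) and -0.83 in TBI+DEIX (SE 0.15, adjusted p = 0.00264). Mmrn1, multimerin 1, which binds factor V in alpha granules, measured 2.65, 1.47 and 1.35 FPKM in control, 0.816, 0.772 and 1.53 in DEIX, 0.221, 1.22 and 1.57 in TBI and 0.327, 0.753 and 0.424 in TBI+DEIX. TBI replicate 3 reached into the control range, and Mmrn1 fell in TBI+DEIX alone (-0.89, SE 0.28, adjusted p = 0.0321), a call lost in 6 of 16 alternatives. Among them was the fit without TBI+DEIX replicate 1 (-0.807, adjusted p = 0.0601).

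Selp, P-selectin of the alpha-granule membrane and of endothelium (ENSMUSG00000026580.16, chr1:164115264-164150026, plus strand), went the other way. It measured 1.25, 0.903 and 0.955 FPKM in control, 3.25, 1.7 and 2.69 in DEIX, 1.12, 1.24 and 1.26 in TBI and 3.49, 3.43 and 3.46 in TBI+DEIX. All 6 libraries with DEIX were above all 6 without it, and TBI overlapped control. Selp rose by 1.13 in TBI+DEIX against control (SE 0.15, limma adjusted p = 0.000513), by 1.01 in TBI+DEIX against TBI (adjusted p = 0.0114) and by 0.78 in DEIX against control (adjusted p = 0.0152). Thbs1, thrombospondin 1, was not called in any comparison. It measured 20.9, 15.1 and 18.9 FPKM in control, 2.89, 16.1 and 12.02 in DEIX, 10.03, 19.99 and 16.6 in TBI and 38.00, 20.4 and 7.64 in TBI+DEIX, and DEIX replicate 1 and TBI+DEIX replicate 1 were its lowest and highest libraries. Serpine2, protease nexin 1, lay between 5.59 and 10.7 FPKM in 11 libraries and at 24.7 in TBI+DEIX replicate 1, and was not called. Its difference of TBI+DEIX from control changed sign, from 0.095 (limma adjusted p = 0.886) to -0.555 (adjusted p = 0.0127), when that library was left out.

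**Figure D2:**
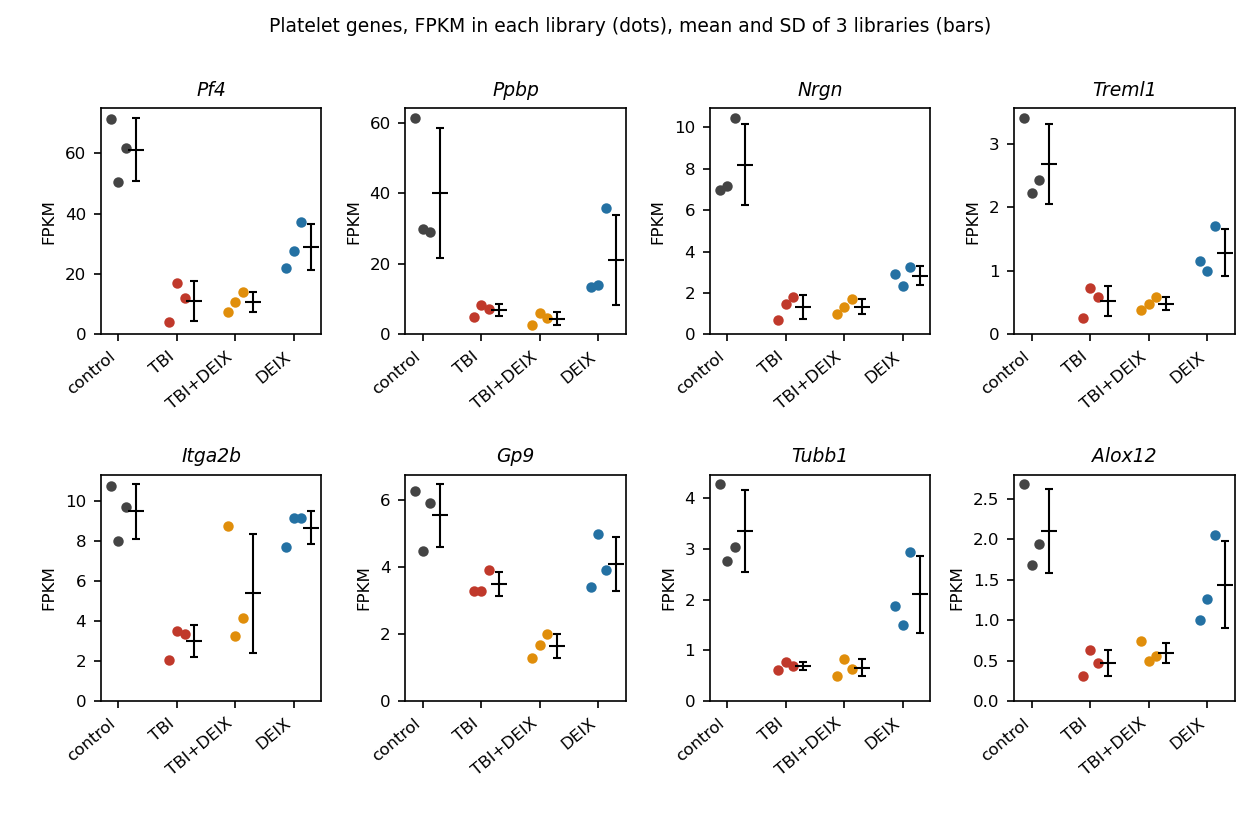
FPKM in each library (dots, linear axes from 0) with the group mean and SD of 3 libraries (bars) for 8 members that fell in irradiated marrow. For Pf4, Nrgn and Treml1 the 3 DEIX libraries lie between control and both irradiated groups, and for Itga2b TBI+DEIX replicate 1 at 8.79 FPKM lies within the DEIX range.

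The adhesion receptors did not move as 1 block: of 9 tested, 1 fell in TBI and 5 fell in TBI+DEIX against control, where 3.1% and 13.1% of all tested genes were called lower. Gp1ba, 1 of the 5, passed the filter only through control and DEIX, so these counts are a description and no support. Itga2b, the alpha chain of the platelet fibrinogen receptor, measured 10.8, 8.01 and 9.74 FPKM in control, 7.73, 9.16 and 9.17 in DEIX, 2.09, 3.54 and 3.39 in TBI and 8.79, 3.25 and 4.17 in TBI+DEIX. It fell by 1.40 in TBI (SE 0.27, limma adjusted p = 0.0151), and DEIX overlapped control. In TBI+DEIX, replicate 1 lay among the controls and the other two libraries were near the TBI level. The fall in TBI+DEIX was 0.80 with that library (adjusted p = 0.0422) and 1.15 without it (adjusted p = 0.000848), and leaving out any other library of that comparison lost the call. Itgb3, the beta chain that pairs with Itga2b and, in other cells, with the integrin αv chain, measured 18.4, 15.97 and 16.8 FPKM in control, 13.4, 16.4 and 21.4 in DEIX, 19.99, 18.4 and 17.3 in TBI and 6.41, 17.7 and 17.4 in TBI+DEIX. It was not called, and apart from TBI+DEIX replicate 1 it lay between 13.4 and 21.4 FPKM in every library.

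The GPIb-IX-V complex, the platelet receptor for von Willebrand factor, is encoded by Gp1ba, Gp1bb, Gp9 and Gp5. Gp9 measured 6.27, 4.49 and 5.9 FPKM in control, 3.41, 4.99 and 3.9 in DEIX, 3.29, 3.29 and 3.92 in TBI and 1.29, 1.68 and 2.00 in TBI+DEIX. All TBI+DEIX libraries were below all TBI libraries, which were below all controls, and DEIX overlapped control and TBI. Gp9 fell by 1.30 in TBI+DEIX against control (SE 0.16, limma adjusted p = 0.000343) and by 0.77 in TBI+DEIX against TBI (SE 0.16, adjusted p = 0.0205), whereas TBI against control was -0.53 (adjusted p = 0.0906). Gp1ba measured 2.05, 1.25 and 1.12 FPKM in control, 0.889, 0.876 and 1.55 in DEIX, 0.341, 0.671 and 0.618 in TBI and 0.664, 0.483 and 0.539 in TBI+DEIX. Its irradiated libraries were all below control, and it passed the filter only through control and DEIX. The difference was -0.67 in TBI (adjusted p = 0.0552) and -0.65 in TBI+DEIX (adjusted p = 0.016), the latter lost without control replicate 1 and with quantile normalization. Gp5 lay between 3.43 and 4.05 FPKM in control and between 1.35 and 3.09 in the other groups, below control in all 9 libraries, and was not called. Gp1bb measured 10.2, 10.9 and 17.1 FPKM in control, 11.4, 10.5 and 11.4 in DEIX, 8.63, 11.2 and 7.21 in TBI and 0.875, 13.5 and 13.03 in TBI+DEIX. These values are uncertain as a readout of Gp1bb, because 1902 of its 2087 exonic bases also belong to Sept5 on the same strand, and it was not called.

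Clec1b, the podoplanin receptor CLEC-2, measured 4.3, 3.49 and 3.7 FPKM in control, 2.36, 1.44 and 2.67 in DEIX, 1.59, 1.8 and 1.9 in TBI and 1.35, 3.21 and 1.92 in TBI+DEIX. It was lower than control in every library of the other groups and fell by 0.65 in TBI+DEIX (limma adjusted p = 0.0349), a call lost in 9 of 16 alternatives, among them without TBI+DEIX replicate 1 (-0.459, adjusted p = 0.0796), against -0.80 in TBI (adjusted p = 0.0565). It shares 184 of its 5103 exonic bases with Clec9a. Cd226, an adhesion receptor shared with T and NK cells, measured 3.18, 2.92 and 2.35 FPKM in control, 1.12, 1.32 and 1.78 in DEIX, 1.35, 1.96 and 0.827 in TBI and 0.61, 1.69 and 1.24 in TBI+DEIX. It too was below control in all 9 libraries, and it fell by 0.83 in TBI+DEIX (adjusted p = 0.0145), a call lost without control replicate 1 or 2; without TBI+DEIX replicate 1 it was -0.63 (adjusted p = 0.0285). Of the markers of T and NK cells, against control 4 of 9 tested fell in TBI+DEIX, 3 in TBI and 1 in DEIX, where 13.1%, 3.1% and 2.72% of all tested genes were called lower, and their summed level was 163 to 197 FPKM in control, 132 to 192 in DEIX, 97.2 to 139.8 in TBI and 56.4 to 144.8 in TBI+DEIX; their part in the Cd226 result was not tested. Cd9, a tetraspanin of platelets and many leukocytes, had the highest level of the list. It measured 137, 137 and 165 FPKM in control, 197, 146 and 186 in DEIX, 167, 154 and 150.1 in TBI and 88.6, 239 and 223 in TBI+DEIX, with TBI+DEIX replicate 1 lowest, and was not called. Without that library Cd9 was called higher in TBI+DEIX than in control (0.661, adjusted p = 0.00384, against 0.203 with it) and than in TBI (0.555, adjusted p = 0.0179, against 0.0974). Gp6, the collagen receptor, was at 0.242 to 0.60 FPKM in control and 0.0103 to 0.156 in the irradiated libraries, under the level tested.

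Among receptors and enzymes of platelet signalling, Nrgn was called in 3 comparisons under every alternative run that tested it. Nrgn (ENSMUSG00000053310.11, chr9:37544492-37552904, minus strand) encodes neurogranin, a calmodulin-binding protein best known from neurons and abundant as a platelet transcript. It measured 7.0, 7.16 and 10.5 FPKM in control, 2.9, 2.35 and 3.28 in DEIX, 0.707, 1.46 and 1.8 in TBI and 0.991, 1.35 and 1.7 in TBI+DEIX. The 4 groups fell into 3 levels without overlap: control, then DEIX, then both irradiated groups together. Nrgn fell by 2.00 in TBI (SE 0.21, limma adjusted p = 0.000615), by 1.96 in TBI+DEIX (adjusted p = 0.000212) and by 1.25 in DEIX (SE 0.21, adjusted p = 0.00809). The difference between its DEIX effects with and without irradiation was 1.28 (SE 0.29, adjusted p = 0.142, not called). It was called without TBI+DEIX replicate 1 (1.39, adjusted p = 0.0298) and with array weights (adjusted p = 0.0103).

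Alox12, the platelet 12-lipoxygenase, measured 2.68, 1.68 and 1.94 FPKM in control, 1.01, 1.27 and 2.05 in DEIX, 0.312, 0.627 and 0.478 in TBI and 0.739, 0.496 and 0.562 in TBI+DEIX. It fell by 1.07 in TBI (SE 0.17, limma adjusted p = 0.00648) and by 0.95 in TBI+DEIX (adjusted p = 0.00266), and all irradiated libraries lay below all others. Alox12 passed the filter only through control and DEIX. F2rl2, the thrombin-receptor family member PAR3, measured 3.5, 2.35 and 2.11 FPKM in control, 1.58, 1.96 and 2.82 in DEIX, 0.591, 0.908 and 0.981 in TBI and 0.729, 1.25 and 1.07 in TBI+DEIX. It fell by 0.99 in TBI (adjusted p = 0.0144) and by 0.85 in TBI+DEIX (adjusted p = 0.0065). Gng11, a G protein gamma subunit, measured 3.34, 3.92 and 4.33 FPKM in control, 3.13, 2.88 and 2.93 in DEIX, 1.79, 1.7 and 1.45 in TBI and 1.45, 1.21 and 1.26 in TBI+DEIX. Its DEIX libraries lay between control and irradiated without overlap, and it fell by 0.88 in TBI (SE 0.11, adjusted p = 0.00143) and by 1.07 in TBI+DEIX (adjusted p = 0.000171). Mrvi1, the IP3 receptor-associated substrate of cGMP kinase, measured 1.67, 1.07 and 1.11 FPKM in control, 0.923, 0.98 and 1.45 in DEIX, 0.329, 0.48 and 0.404 in TBI and 0.404, 0.372 and 0.227 in TBI+DEIX. It fell by 0.69 in TBI (adjusted p = 0.019) and by 0.77 in TBI+DEIX (adjusted p = 0.00247), with every irradiated library at 0.48 FPKM or less. Mrvi1 too passed the filter only through control and DEIX. Rab27b, a GTPase of dense-granule secretion, measured 2.27, 1.39 and 1.31 FPKM in control, 0.819, 1.14 and 1.66 in DEIX, 0.185, 0.625 and 0.546 in TBI and 1.22, 0.466 and 0.352 in TBI+DEIX. Its difference was -0.87 in TBI (adjusted p = 0.0587) and -0.68 in TBI+DEIX (adjusted p = 0.0412), where the call was lost in 12 of 16 alternatives. TBI+DEIX replicate 1 was high, and without it the difference was -0.899 (adjusted p = 0.0063). Trpc6, a cation channel, was at 0.368 to 0.74 FPKM in control and 0.0515 to 0.166 in irradiated marrow and was not tested.

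Ptgs1 and Tbxas1, both of prostanoid synthesis, were called in opposite directions in TBI+DEIX against control. In TBI against control Tbxas1 was not called (-0.436, limma adjusted p = 0.156). Ptgs1, cyclooxygenase 1, the aspirin target of platelets, measured 26.2, 27.7 and 27.9 FPKM in control, 34.2, 25.5 and 34.6 in DEIX, 40.4, 40.3 and 37.2 in TBI and 52.02, 44.4 and 45.99 in TBI+DEIX. All TBI libraries were above all controls and all TBI+DEIX libraries above all TBI libraries. Ptgs1 rose by 0.78 in TBI+DEIX against control (SE 0.12, limma adjusted p = 0.00106) and by 0.51 in TBI (adjusted p = 0.0372), the latter lost in 12 of 17 alternatives. Tbxas1, thromboxane synthase, which takes the product of that pathway on to thromboxane A2, measured 9.15, 9.05 and 9.6 FPKM in control, 6.99, 8.35 and 7.44 in DEIX, 7.1, 6.05 and 6.64 in TBI and 4.52, 7.79 and 6.72 in TBI+DEIX. It was lower than control in every other library and fell by 0.51 in TBI+DEIX (adjusted p = 0.0273), a call lost when any 1 control library was left out and in a fit of these groups alone. Without TBI+DEIX replicate 1 the difference of Tbxas1 was -0.317 (adjusted p = 0.0306). P2ry12, the ADP receptor blocked by clopidogrel (ENSMUSG00000036353.13, chr3:59216272-59262871, minus strand), measured 3.02, 2.35 and 2.17 FPKM in control, 5.96, 4.73 and 4.78 in DEIX, 3.35, 2.76 and 1.8 in TBI and 6.88, 4.61 and 6.35 in TBI+DEIX. As with Selp, the 6 libraries with DEIX were all above the 6 without it. P2ry12 rose by 0.98 in TBI+DEIX against control (SE 0.18, adjusted p = 0.00312), by 0.94 in TBI+DEIX against TBI (adjusted p = 0.0199) and by 0.81 in DEIX against control (adjusted p = 0.0285).

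Rgs18, a regulator of G protein signalling in platelets and other marrow cells, measured 46.03, 45.5 and 42.03 FPKM in control, 57.96, 51.98 and 62.3 in DEIX, 50.3, 45.6 and 38.5 in TBI and 49.05, 62.7 and 66.5 in TBI+DEIX. It rose by 0.40 in TBI+DEIX against control (limma adjusted p = 0.044), a call lost in 12 of 17 alternatives. Its difference from TBI was 0.396 (adjusted p = 0.0878), called without TBI+DEIX replicate 1 (0.526, adjusted p = 0.013). Plek, pleckstrin, a protein kinase C substrate of platelets and leukocytes, measured 86.1, 76.3 and 73.5 FPKM in control, 93.9, 103 and 121 in DEIX, 86.9, 69.1 and 58.2 in TBI and 83.1, 128 and 132 in TBI+DEIX. Its TBI+DEIX libraries 2 and 3 were highest, and its difference from TBI was 0.66 (adjusted p = 0.0588), called when TBI replicate 1 was left out and when TBI+DEIX replicate 1 was (0.873, adjusted p = 0.00683), and also with array weights. Against control the Plek difference was 0.507 (adjusted p = 0.0692), and 0.719 without TBI+DEIX replicate 1 (adjusted p = 0.00522).

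In the remaining block, Tubb1, the beta-tubulin of the platelet marginal band, measured 4.27, 2.76 and 3.03 FPKM in control, 1.88, 1.49 and 2.94 in DEIX, 0.61, 0.764 and 0.704 in TBI and 0.501, 0.841 and 0.642 in TBI+DEIX. All 6 irradiated libraries were under 1 FPKM and all 6 unirradiated ones above it, so Tubb1 passed the filter only through control and DEIX. Tubb1 fell by 1.35 in TBI (SE 0.18, limma adjusted p = 0.00203) and by 1.38 in TBI+DEIX (adjusted p = 0.000483), and DEIX against control was -0.50 (adjusted p = 0.115). Cavin2, a coat protein of caveolae, measured 2.66, 1.34 and 1.94 FPKM in control, 1.29, 1.34 and 2.37 in DEIX, 0.349, 0.669 and 0.459 in TBI and 0.438, 0.26 and 0.524 in TBI+DEIX. It fell by 0.98 in TBI (adjusted p = 0.0177) and by 1.06 in TBI+DEIX (adjusted p = 0.0025), and DEIX overlapped control. Cavin2 also passed the filter only through control and DEIX. Ctla2a, a cysteine protease inhibitor (ENSMUSG00000044258.10, chr13:60934155-60936625, minus strand), measured 8.11, 7.94 and 8.07 FPKM in control, 4.42, 6.09 and 4.38 in DEIX, 2.31, 3.67 and 2.79 in TBI and 4.51, 4.95 and 4.9 in TBI+DEIX. TBI was lowest, TBI+DEIX and DEIX overlapped between, and control was highest. Ctla2a fell by 1.22 in TBI (SE 0.14, adjusted p = 0.00117), by 0.64 in TBI+DEIX (adjusted p = 0.00686) and by 0.61 in DEIX (adjusted p = 0.0305) against control, and it was higher by 0.57 in TBI+DEIX than in TBI (adjusted p = 0.036). It shares 343 of its 2108 exonic bases with Gm49391 and has close paralogs, so its level is uncertain where reads could be split among copies. Fli1, the ETS factor of the list, measured 32.8, 31.6 and 33.2 FPKM in control, 39.98, 33.7 and 44.9 in DEIX, 38.9, 35.1 and 31.1 in TBI and 37.4, 39.7 and 46.8 in TBI+DEIX. It was not called in any comparison (0.33 in TBI+DEIX against control, adjusted p = 0.0711), and was called without TBI+DEIX replicate 1 (0.394, adjusted p = 0.0336).

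**Figure D3:**
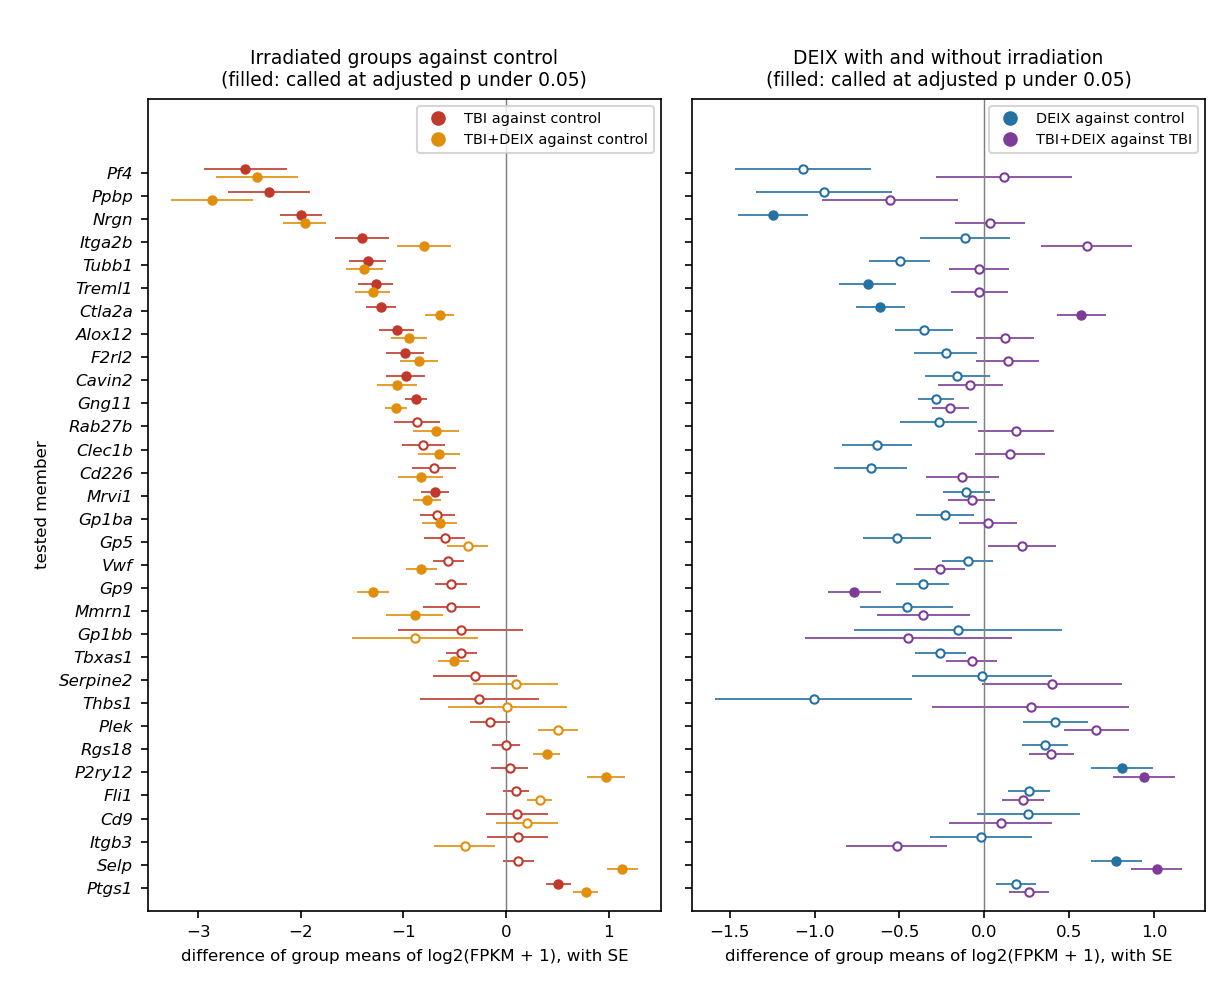
Difference of group means of log2(FPKM + 1) with its SE for the 32 tested members, ordered by TBI against control; the left panel shows TBI and TBI+DEIX against control, the right panel DEIX against control and TBI+DEIX against TBI, and filled points are called. Pf4 lies at -2.54 and -2.42 on the left, and Selp and P2ry12 are filled on the right of 0 in the right panel.

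DEIX after irradiation was compared with vehicle after irradiation. Of the 32 tested members, Selp, P2ry12 and Ctla2a rose and Gp9 fell, where 4.69% of tested genes were called higher and 3.41% lower. The median of the members was 0.107, beside 0.00315 over all tested genes. Every TBI+DEIX library was above every TBI library for 4 members (Selp, P2ry12, Ptgs1 and Ctla2a) and below for 1 (Gp9), against 14.5% and 12.7% of tested genes. Of the 12 members that fell in TBI, Ctla2a alone was called higher in TBI+DEIX than in TBI, and the libraries of the other 11 overlapped between the irradiated groups. The same TBI libraries picked these 12 and are the baseline here, so the 2 comparisons are not independent. Ppbp differed by -0.56 (SE 0.40) and Itga2b by 0.60 (SE 0.27, limma adjusted p = 0.173), neither called. Without TBI+DEIX replicate 1 these were -0.284 and 0.249. None of the 4 calls held in a fit of these 2 groups alone (0 called, 7 at an unadjusted p under 0.05) or without TBI replicate 3 (0 called, 5 at an unadjusted p under 0.05). Without TBI+DEIX replicate 1, 7 were called, the further ones being Cd9, Rgs18 and Plek, all higher, and after scaling each library to the same FPKM sum the split was 1 higher and 1 lower.

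DEIX without irradiation was compared with control, for which no dosing by mouth is stated, so DEIX and dosing by mouth cannot be told apart. Selp and P2ry12 rose, and Nrgn, Treml1 and Ctla2a fell, where 4.52% of tested genes were called higher and 2.72% lower. Treml1 fell by 0.69 (SE 0.17, limma adjusted p = 0.035). The median of the members was -0.244, beside 0.0162 over all tested genes. Every DEIX library was above every control library for 5 members and below for 9, against 23.4% and 17.2% of tested genes. Pf4 differed by -1.07 (SE 0.40, adjusted p = 0.129), a difference called in a fit of these groups alone, and Ppbp by -0.94 (adjusted p = 0.171). DEIX lay above both irradiated groups in every library for 13 of the 34 members and 12 of the 32 tested, where 3.68% of tested genes did so. The 12 include the 6 that passed the filter only through control and DEIX, so this too is a description and no support. For 4 of the 13 (Pf4, Treml1, Gng11 and Nrgn) it also lay below control in every library (0.855% of tested genes). Only the Nrgn call held under every alternative run that tested the gene. Each of the other 4 calls was lost without control replicate 2, without control replicate 3 and without DEIX replicate 1, and after scaling to the same FPKM sum Nrgn alone was called (0 higher and 1 lower).

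The interaction asks whether the DEIX difference was the same in irradiated and unirradiated mice. Its irradiated side is measured from TBI mice given vehicle, its unirradiated side from controls with no dosing stated. An unequal effect of DEIX therefore cannot be told apart from an effect of dosing or vehicle. Of the tested members Ctla2a alone was called, where 0.2% of tested genes were called in either direction, and 5 members had an unadjusted p under 0.05. Without TBI+DEIX replicate 1, Nrgn was called as well (1.39, limma adjusted p = 0.0298). DEIX went with a lower Ctla2a level in unirradiated and a higher one in irradiated mice, a difference of 1.19 (SE 0.20, limma adjusted p = 0.0496) that passed the threshold in 6 of 22 alternatives. For Pf4 it was 1.19 with an SE of 0.57 (adjusted p = 0.707).

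Genes that direct megakaryocyte development, given as 19 genes all tested, come next. Against control, 2 fell and 0 rose in TBI, where 3.1% of all tested genes were called lower and 0.891% higher. In TBI+DEIX against control 4 fell and 3 rose, where 13.1% were called lower and 16.9% higher. In DEIX against control 1 fell and 1 rose (2.72% and 4.52%), and in TBI+DEIX against TBI 2 fell and 0 rose (3.41% and 4.69%). The 2 that fell in TBI were the transcription factors Meis1 and Mef2c. Meis1, a homeobox partner of HOX proteins, was 1.77 ± 0.14 FPKM in control, 1.66 ± 0.109 in DEIX, 0.548 ± 0.053 in TBI and 0.57 ± 0.239 in TBI+DEIX (SD, n = 3 each). Its irradiated libraries lay below all others, and it fell by 0.84 in TBI (SE 0.12, limma adjusted p = 0.00335) and by 0.83 in TBI+DEIX (adjusted p = 0.000817). All 6 of these libraries were under 1 FPKM, so Meis1 passed the filter only through control and DEIX, and its place in the counts is a description and no support. Mef2c, also high in B cells and myeloid progenitors, was 17.6 ± 1.07 in control, 11.7 ± 1.78 in DEIX, 9.86 ± 1.27 in TBI and 6.29 ± 0.711 in TBI+DEIX, and it fell by 0.78 in TBI and by 1.36 in TBI+DEIX against control. Mef2c also fell by 0.56 in DEIX against control (adjusted p = 0.0317) and by 0.57 in TBI+DEIX against TBI (adjusted p = 0.0297), calls lost in 7 and 6 of 17 alternatives. Mafg, the small MAF partner of NFE2, rose by 0.63 in TBI+DEIX and by 0.50 in DEIX against control, from 49.9 to 58.2 FPKM in control to 79.7 to 85.8 and 67.9 to 81.2; scaled to equal FPKM sums, neither was called. The call in TBI+DEIX was lost in 1 of 17 alternatives and that in DEIX in 6 of 17, among them the fits without control replicate 1 or 2 and without DEIX replicate 1 or 3. The other calls in TBI+DEIX against control were Srf (0.57) and Nfe2 (0.50), which rose, and Lmo2 (-0.65) and Ldb1 (-0.38), which fell. Of 17 alternatives each, Nfe2 lost the call in 10, Ldb1 in 7, Srf in 5 and Lmo2 in 0. Lmo2 was also lower in TBI+DEIX than in TBI (-0.57, adjusted p = 0.0354), a call lost in 7 of 17. Gata1 and its cofactor Zfpm1, shared with the red cell lineage, were not called. Gata1 was 26.3 ± 1.62 FPKM in control, 17.6 ± 11.7 in DEIX, 36.6 ± 12.9 in TBI and 16.6 ± 4.65 in TBI+DEIX. Of the erythroid markers, 0 of 11 were called in TBI, 0 in DEIX and 7 fell in TBI+DEIX against control, and 5 fell in TBI+DEIX against TBI, with sums of 2624 to 4209 FPKM in control, 1106 to 5639 in DEIX, 1465 to 6022 in TBI and 247 to 1301 in TBI+DEIX.

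**Figure D4:**
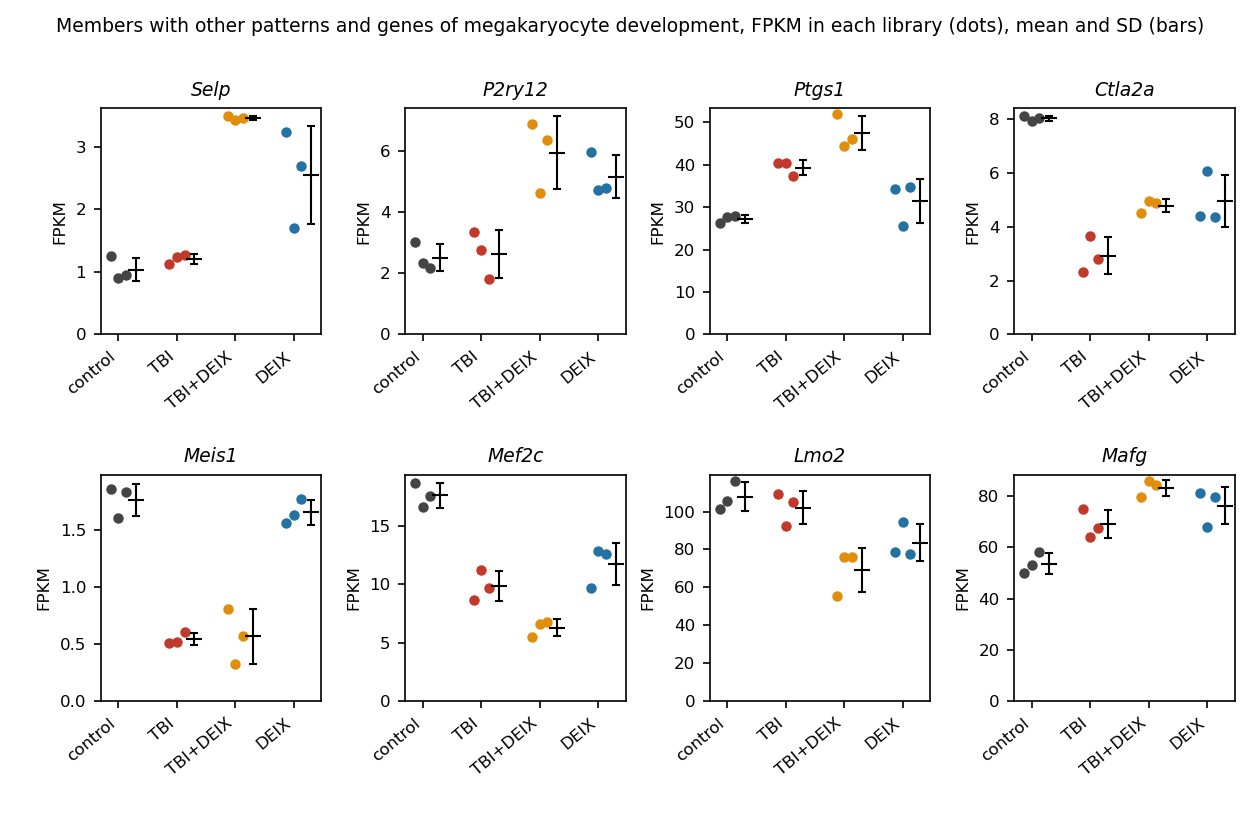
FPKM in each library (dots, linear axes from 0) with the group mean and SD of 3 libraries (bars) for 4 members that did not simply fall with irradiation (Selp, P2ry12, Ptgs1, Ctla2a) and 4 genes of megakaryocyte development (Meis1, Mef2c, Lmo2, Mafg). Meis1 is low in both irradiated groups, while Selp and P2ry12 are highest in the groups with DEIX.

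Of 40 further platelet function genes, 36 were tested. In TBI 4 fell and 0 rose against control, where 3.1% of all tested genes were called lower and 0.891% higher. The 4 were Angpt1 (-1.28), a growth factor of alpha granules and stem cells, Myl9 (-0.98), the myosin light chain, Pear1 (-0.76), an aggregation receptor, and F2rl3 (-0.54), the thrombin receptor PAR4. Of 16 alternatives each, Angpt1 lost the call in 0, Myl9 in 2 (without control replicate 1 and without control replicate 3), Pear1 in 8 and F2rl3 in 10. In TBI+DEIX against control 6 fell and 13 rose, where 13.1% and 16.9% did so, and the largest differences were Flna (1.28), filamin A, Angpt1 (-1.11), the thromboxane receptor Tbxa2r (-1.10), the integrin-linked Parvb (-1.09) and Tmem40 (1.07). The Tbxa2r call was lost in 9 of 16 alternatives. In TBI+DEIX against TBI 7 rose and 1 fell, where 4.69% and 3.41% did so, among them Parvb (-1.19), Tmem40 (0.73) and the secretion protein Stxbp2 (0.61), calls lost in 3, 6 and 7 of 17 alternatives in turn. In DEIX against control 7 rose and 1 fell, where 4.52% and 2.72% did so, led by the factor XIII chain F13a1 (0.98), which monocytes also make, protein S, Pros1 (0.94), the matrix protein Sparc (-0.88) and factor V, F5 (0.68). These calls were lost in 8 of 17, 6 of 17, 8 of 16 and 7 of 17 alternatives in turn. The median of this list was 0.108, 0.133, 0.229 and 0.262 in these 4 comparisons in turn. Over all tested genes the median was 0.0451, 0.0198, 0.00315 and 0.0162, also above 0 in each. That of the 32 tested members was below 0 in the 3 comparisons with control.

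Levels of markers of other marrow cells stand here beside the members', and their part in the members' results was not tested. No marker of these cell lists was at 0 in any library. The shares of all tested genes called in each comparison, given above, are the background of their counts. Stem and progenitor markers summed to 65.9 to 68.7 FPKM in control, 48.4 to 68.5 in DEIX, 31.9 to 33.5 in TBI and 25.7 to 38.5 in TBI+DEIX, with 2 of 6 tested called lower in TBI and 4 of 6 in TBI+DEIX. Endothelial markers, relevant to Vwf and Selp, summed to 25.9 to 29.1 in control, 16.1 to 24.2 in DEIX, 18.5 to 30.0 in TBI and 17.2 to 21.6 in TBI+DEIX. Of 4 tested endothelial markers, 0 were called higher in any comparison, 2 fell in TBI+DEIX against control, and 1 fell in each of TBI against control, TBI+DEIX against TBI and DEIX against control. Of these 4, Tie1 passed the filter only through control and DEIX. Angpt1 and Esam of the stem and progenitor list are also in the platelet function list. Neutrophil markers summed to 18920 to 27040 in control, 21880 to 28330 in DEIX, 19710 to 25410 in TBI and 14670 to 39840 in TBI+DEIX, and 3 of 10 rose and 1 fell in TBI+DEIX against control, with 0 called in the other 3 comparisons. Of 11 monocyte and macrophage markers, which summed to 1965 to 2017 in control, 2196 to 2529 in DEIX, 1335 to 2086 in TBI and 777 to 2725 in TBI+DEIX, 1 rose and 2 fell in TBI, and 1 rose and 2 fell in TBI+DEIX against control. In DEIX against control 2 rose and 2 fell, and in TBI+DEIX against TBI 2 rose and 1 fell. Of 8 basophil and mast cell markers, which summed to 485 to 569 in control, 469.5 to 524.6 in DEIX, 217 to 370.1 in TBI and 207 to 560.4 in TBI+DEIX, 1 fell in TBI+DEIX against control and 0 were called in the other 3 comparisons.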

How the data were processed

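Whole bone marrow of 12 mouse libraries, 3 in each of 4 groups, was measured by RNA sequencing. The authors deposited 1 table of FPKM values, made with STAR 2.6 and Cufflinks 2.2.1 on mm10 per the submitters' processing notes, from directional libraries per the labels' protocols. FPKM divides by transcript length and mapped fragments, so read totals are not kept and a few very abundant genes can lower all others. All 21853 identifiers matched GENCODE vM21 symbols.

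Values were taken as log2(FPKM + 1) for the 10994 genes at 1 FPKM or more in at least 3 libraries. A model of 4 group means was fitted with limma 3.58.1 in R 4.3.3 (empirical Bayes with a mean-variance trend), with Benjamini-Hochberg adjustment over all tested genes and a threshold of 0.05; tests are two-sided. The fit was tested on simulated data with known changes. The 5 contrasts were TBI, TBI+DEIX and DEIX against control, TBI+DEIX against TBI, and the interaction.

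The members, the lists of development, platelet function and cell markers, and the rules were chosen with earlier results of these data known. Library values are given for members called between any 2 groups and for the 10 of highest control mean, and the rest by range. Of other lists, up to 5 called genes per contrast could be named, by size. Ahsp and Trbc2 of the marker lists are not analysed here, and some genes of the development list are not reported here. Alternatives changed the pseudocount, filter, scaling, samples fitted, replicate block, weights and trend, and left out each library; 1 scaling, to an FPKM sum without S100a8, S100a9 and Ngp, was chosen after seeing the data. The rule that left the read worth of TBI+DEIX replicate 1 unsettled was added after its values tied. Promoters are RefSeq's, 1 window a gene (the first listed); 8 members (Vwf, Thbs1, Itgb3, Cd226, Gng11, Rgs18, Rab27b and Fli1) had none.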

Additional observations from a re-analysis of the deposited data

Results flagged for a closer look

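Of the tested members, Ctla2a alone had a DEIX difference called as unequal in irradiated and unirradiated mice: it was 1.185 higher on the log2 scale after irradiation (limma adjusted p = 0.0496, interaction term). Vehicle is stated for TBI and no dosing for control, so this cannot be told apart from an effect of dosing or vehicle. All 3 TBI+DEIX libraries (4.51 to 4.95 FPKM) were above all 3 TBI libraries (2.31 to 3.67 FPKM), and all 3 DEIX libraries (4.38 to 6.09 FPKM) were below all 3 control libraries (7.94 to 8.11 FPKM). The call passed in 6 of 22 alternatives, with values from 1.07 to 1.42 and adjusted p from 0.00187 to 0.186. It was lost when any 1 control library, TBI library, TBI+DEIX replicate 2 or 3, or DEIX replicate 1 or 3 was left out. Without TBI+DEIX replicate 1, Nrgn was called as well (1.39, limma adjusted p = 0.0298).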

How the results depend on the processing

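Of 101 single-gene values, 42 kept their side of the threshold and their sign under every alternative run that tested the gene, and 3, none of them called as reported, changed sign. Serpine2 in TBI+DEIX against control became -0.0186 at equal FPKM sums, -0.0234 with upper quartile scaling and -0.522 with array weights, and ranged from -0.555 to 0.427 with 1 library left out. Cd9 in TBI+DEIX against TBI became -0.036 and -0.0111 at equal FPKM sums with and without S100a8, S100a9 and Ngp and -0.091 with quantile normalization, and ranged from -0.156 to 0.555 with 1 library left out. Cd9 against control became -0.0342 with quantile normalization and ranged from -0.0508 to 0.661. A minimum mean of 5 FPKM left 14 members tested and gave 4 called in TBI against control, 1 in TBI+DEIX against TBI, 1 in DEIX against control, 7 in TBI+DEIX against control and 0 for the interaction (1 at an unadjusted p under 0.05). Fits of the compared groups alone gave 20 in TBI against control, 0 in TBI+DEIX against TBI and 10 in DEIX against control. Array weights (0.0709 for TBI+DEIX replicate 1 to 11 for control replicate 2) gave 22, 9 and 16 in these comparisons and 3 for the interaction; limma's default algorithm for them did not converge, and the gene-by-gene one was chosen after that. Scaling to equal FPKM sums gave 2 in TBI+DEIX against TBI and 1 in DEIX against control, and without S100a8, S100a9 and Ngp 2 and 2. For the interaction, a pseudocount of 0.1, no filter, upper quartile scaling and both sum scalings gave 0, with 4 or 5 members at an unadjusted p under 0.05. Leaving out 1 library gave 8 to 12 members called in TBI against control, 0 to 7 in TBI+DEIX against TBI, 1 to 4 in DEIX against control, 16 to 26 in TBI+DEIX against control and 0 to 2 for the interaction. The cause was not tested. Equal FPKM sums moved the median of all genes by -0.121 in TBI+DEIX against TBI, -0.139 in DEIX against control and -0.115 in TBI+DEIX against control, and upper quartiles by -0.119 in the last. Over all genes the calls ranged from 134 to 4218 in TBI against control (439 as reported), 0 to 4488 in TBI+DEIX against TBI (891), 146 to 4508 in DEIX against control (796), 1785 to 6187 in TBI+DEIX against control (3299) and 4 to 532 for the interaction (22), each highest with array weights.

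Libraries of the same number were not shown to be paired: their deviations correlated from -0.447 to 0.242 in 18 pairs, and 2 of 12 libraries correlated best with their own number. With the replicate number as a block, the members called were 12 in TBI against control, 4 in TBI+DEIX against TBI, 4 in DEIX against control, 20 in TBI+DEIX against control and 1 for the interaction. Depth per library is unknown, so no counting error can be given for values under 1 FPKM, and 3 libraries a group limit every estimate.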
